A study of Mus musculus with 4 samples.

Results

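The transcripts described here belong to 9 genes of the B lymphocyte lineage and of antigen receptor gene assembly (Cd79a, Cd79b, Cd22, Blnk, Ebf1, Pax5, Rag1, Rag2 and Dntt), followed through 4 sorted subsets of mouse spleen dendritic cells (DCs). They were listed by name and taken with all their probe sets, which were 17 of 34945 probe sets with 1 gene symbol and 9 of 18193 named genes. One Affymetrix mouse genome array was hybridised for each subset, so no value has a standard deviation or a p-value, each difference describes a pair of arrays, and the number of arrays limits the precision. The subsets were CD8+CX3CR1+, CD8+CX3CR1-, CD4+ and DN DCs, where DN usually stands for cells without CD4 or CD8. All came from Cx3cr1gfp/+ C57BL/6 mice, in which green fluorescent protein replaces a copy of the chemokine receptor gene Cx3cr1 and marks cells with an active Cx3cr1 promoter. All carry a minus sign in the label for BMP4 treatment, and all were sorted for high surface CD11c. The sources used here do not give the age, the sex or the number of the mice, nor whether cells were pooled. Below, a value in a subset is the value of its single array.

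In B cells, the proteins CD79A and CD79B pair as the signalling chains of the B cell receptor, the adaptor BLNK relays their signal to downstream enzymes, and the lectin CD22 dampens it. EBF1 and PAX5 are the transcription factors that set up and hold B cell identity. RAG1 and RAG2 together cut DNA at the recombination signals of antigen receptor genes, and terminal transferase, encoded by Dntt, adds bases at the junctions. Plasmacytoid DCs, the interferon-producing relatives of conventional DCs, are known to carry traces of this programme, including rearranged D and J segments of the immunoglobulin heavy chain. The arrays allow the transcripts of that programme to be set side by side in CD8+ DCs with and without CX3CR1 and in the other conventional subsets.

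Of the 9 genes, Cd22, Cd79b and Blnk had signals clear of the background and differed at least 4-fold between arrays, each with a profile of its own. Cd22 was high on the CD4+ and DN arrays, Cd79b lay under the floor in CD8+CX3CR1- DCs and above it on the other 3, and Blnk was highest in CD8+CX3CR1+ DCs. Ebf1, Pax5 and Rag2 reached values just above the floor, all within the range of the background probe sets. Cd79a, Rag1 and Dntt lay under the floor on all 4 arrays.

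The promoters of Cd22 and Blnk are shown because these are the genes with a 4-fold difference whose start regions stand in the RefSeq promoter table of build GRCm38.p6, which matched 8 of the 9 genes with 9 promoters. Each run covers 250 bases before and 50 bases from the annotated start, 5′ to 3′ on the gene's strand. Both genes lie on the minus strand, Cd22 at chr7:30878979-30879278 and Blnk at chr19:40994172-40994471. Capitals mark matches to 4 motifs searched on both strands, namely an E-box (CAGNTG), an EBF-type motif (CCCNNGGG), the octamer (ATTTGCAT) and an Ikaros-type motif (TGGGAA).
Cd22: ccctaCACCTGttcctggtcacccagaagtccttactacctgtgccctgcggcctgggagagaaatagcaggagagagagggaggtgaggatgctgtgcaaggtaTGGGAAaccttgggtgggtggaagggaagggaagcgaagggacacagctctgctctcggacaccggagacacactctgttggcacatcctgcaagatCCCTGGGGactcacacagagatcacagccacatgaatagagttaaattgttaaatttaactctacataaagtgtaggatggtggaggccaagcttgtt
Blnk: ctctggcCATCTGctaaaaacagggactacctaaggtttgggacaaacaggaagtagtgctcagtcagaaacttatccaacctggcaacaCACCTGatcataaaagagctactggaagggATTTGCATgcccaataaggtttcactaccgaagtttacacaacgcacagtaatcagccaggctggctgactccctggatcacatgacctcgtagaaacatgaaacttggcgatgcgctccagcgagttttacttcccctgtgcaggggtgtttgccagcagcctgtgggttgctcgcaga

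The Cd22 promoter held 1 EBF-type match at 48 to 41 bases before the start, which reads on both strands. It also held 1 Ikaros-type match at 145 to 140 and 1 E-box match at 245 to 240 bases before the start. The Blnk promoter held 1 octamer at 130 to 123 bases before the start and 2 E-box matches, at 243 to 238 and 160 to 155 bases before it. No 2 of these matches overlapped. Of all 32851 promoters in the table, 51.4% held the E-box, 13.7% the EBF-type motif, 25.6% the Ikaros-type motif and 1.74% the octamer. The octamer, the motif of the Oct proteins that immunoglobulin promoters are known for, was thus the least common of the 4 and stood in Blnk alone among the 9 promoters of these genes. The Rag1 promoter held 3 E-box matches and 1 Ikaros-type match, and those of Cd79a and Rag2 held 1 E-box match each. One of the Ebf1 promoters held 1 Ikaros-type match, while the other and those of Pax5 and Dntt held none of the 4. A match describes letters in this window and is neither a binding site nor a cause of the values below.

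The values are MAS5 signals on a linear scale. Low MAS5 signals scatter widely, so a floor of 55.4 was set at the 90th percentile of 129 probe sets of chemosensory receptor and hair keratin-associated genes, for which no activity in spleen is known. These background probe sets reached at most 91.5 in CD8+CX3CR1+ DCs, 139.1 in CD8+CX3CR1- DCs, 214.4 in CD4+ DCs and 180.0 in DN DCs. The CD4+ array stood somewhat apart, with 47.8% of probe sets above the floor against 41.1% to 42.7% and a median signal of 51.3 against 40.3 to 42.2. For the Gapdh control it had a ratio of 3' to 5' signal, which rises as RNA breaks down, of 11.8 against 7.56 to 8.98. For the actin control the ratio was 2.86 on the CD4+ array against 1.79 to 2.32. The cause of these ratios was not tested. The DC markers on the list (among them Itgax, the CD11c chain, and the class II genes H2-Aa and H2-Ab1) were above the floor on all 4 arrays for 8 of 8 genes. The DC type field of the labels contradicts the title for the CD8+CX3CR1- and DN arrays. Groups follow the titles, with which the transcripts of Cd8a (2530, 4742, 18.7 and 129.5 in CD8+CX3CR1+, CD8+CX3CR1-, CD4+ and DN DCs), Cx3cr1 (893.7, 97.3, 275.0 and 258.4) and Cd4 (93.3, 21.1, 563.5 and 93.9) go by the brightest probe set of each. The other Cx3cr1 probe set (1450019_at) was under the floor on all 4 arrays, and that of Cd4 (1427779_a_at) was above it in CD4+ DCs alone. With probe sets averaged, the Cx3cr1 difference between the CD8+ subsets (1.60, log2) and the Cd4 differences (1.51 to 1.89 in size) were under 4-fold.

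By gene, 5 of the 9 lay above the floor in CD8+CX3CR1+ DCs, where 52.9% of all named genes did. On the CD8+CX3CR1- array 2 of 9 did, against 52.1% of all genes. The CD4+ array had 4 of 9 (58.8% of all genes), and the DN array had 4 of 9 (53.5%). By probe set, 5, 2, 5 and 5 of 17 lay above the floor in the same order, and 10 of the 17 lay under it everywhere.

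**Figure D1:**
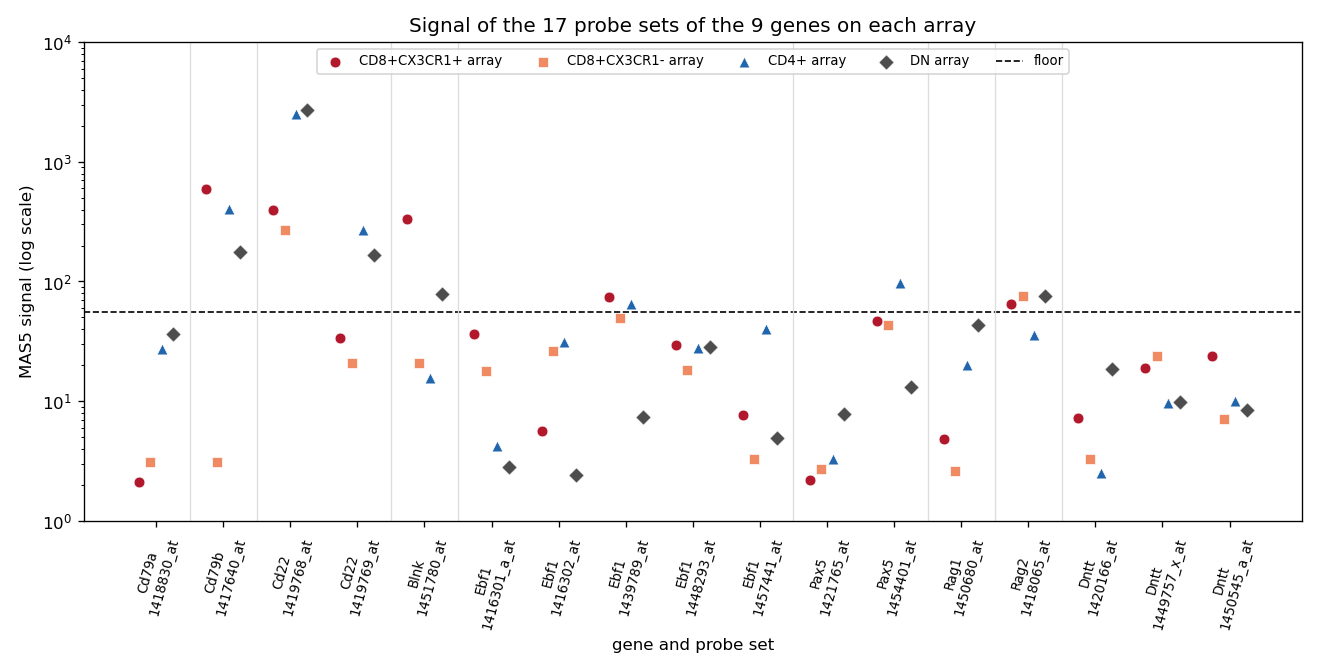
MAS5 signal (log scale) of each of the 17 probe sets of the 9 genes, with 1 point per array and the floor of 55.4 as a dashed line. Cd79b, the brighter probe set of Cd22 and Blnk rise well above the floor, while the probe sets of Ebf1, Pax5, Rag1, Rag2 and Dntt lie between 2.2 and 97.1 on all arrays.

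Among the receptor chains, Cd79b (1 probe set, 1417640_at) had a signal of 593.0 in CD8+CX3CR1+ DCs, 3.1 in CD8+CX3CR1- DCs, 401.8 in CD4+ DCs and 178.0 in DN DCs. It was high on the CD8+CX3CR1+ and CD4+ arrays, intermediate in DN DCs and at background in CD8+CX3CR1- DCs. CD8+CX3CR1+ DCs exceeded CD8+CX3CR1- DCs by at least 10.7-fold, a bound because the lower value was raised to the floor, and the CD4+ array was at least 7.25-fold above it. The DN array exceeded it by at least 3.21-fold, short of the 4-fold threshold used for calls, and its value of 178.0 lay just inside the background range of that array, where 1 of 129 background probe sets was brighter. The bound rests on the floor, and with the floor at the 75th percentile, 35.0, the DN difference passed the threshold with a log2 difference of at least 2.35 in size. The CD8+CX3CR1+ array was 1.48-fold above CD4+ DCs and 3.33-fold above DN DCs, and the CD4+ array was 2.26-fold above DN DCs. In bulk RNA, fewer cells that hold a transcript and less of it per cell cannot be told apart, here or for the genes that follow.

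Its partner Cd79a (1418830_at) was 2.1 in CD8+CX3CR1+ DCs, 3.1 in CD8+CX3CR1- DCs, 27.2 in CD4+ DCs and 36.6 in DN DCs. All 4 values were under the floor, so no fold was computed, and the 3 arrays with a Cd79b signal showed none of its partner above the floor. The signals of different probe sets are not on 1 scale, so the levels of the pair cannot be set against each other.

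Cd22, a sialic acid-binding lectin whose tail recruits phosphatases, has 2 probe sets. The brighter one (1419768_at) read 396.4 in CD8+CX3CR1+ DCs, 268.6 in CD8+CX3CR1- DCs, 2512.9 in CD4+ DCs and 2712.8 in DN DCs. The CD8+ pair was thus low and the CD4+ and DN pair high, with no array in between, and all 4 values lay above every background probe set of their array. The CD8+CX3CR1+ array was 6.34-fold below CD4+ DCs and 6.84-fold below DN DCs, and the CD8+CX3CR1- array 9.36-fold and 10.1-fold below them. Within the pairs the differences were 1.48-fold (CD8+CX3CR1+ above CD8+CX3CR1-) and 1.08-fold (DN above CD4+).

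The dimmer probe set of Cd22 (1419769_at) read 33.6, 20.9, 271.5 and 167.2 in CD8+CX3CR1+, CD8+CX3CR1-, CD4+ and DN DCs. It gave the same split, with both CD8+ arrays under the floor, at least 4.90-fold below CD4+ DCs and at least 3.02-fold below DN DCs. The probe sets disagreed on the order of the upper pair, since here the CD4+ array was 1.62-fold above DN DCs.

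Blnk (1451780_at), the adaptor that links the tyrosine kinase SYK to phospholipase C, had a signal of 334.3 in CD8+CX3CR1+ DCs, 21.0 in CD8+CX3CR1- DCs, 15.5 in CD4+ DCs and 78.8 in DN DCs. It was clearly high in CD8+CX3CR1+ DCs alone. Its signal there exceeded that in CD8+CX3CR1- and in CD4+ DCs, both under the floor, by at least 6.03-fold, and that in DN DCs by 4.24-fold. The DN value lay within the range of its background, where 6 of 129 background probe sets were as bright or brighter, so that the fold against it is close to a bound. The log2 difference from DN DCs was 2.08 as deposited and 2.02 after quantile normalization, close to the threshold of 2. The DN array was at least 1.42-fold above the CD8+CX3CR1- and CD4+ arrays.

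The lineage transcription factors stayed near the background. Ebf1, which opens B cell genes in progenitors, has 5 probe sets, of which only 1439789_at reached the floor. It read 73.9 in CD8+CX3CR1+ DCs, 49.5 in CD8+CX3CR1- DCs, 64.6 in CD4+ DCs and 7.4 in DN DCs, and 3 of 129 background probe sets were as bright or brighter in CD8+CX3CR1+ DCs and 12 in CD4+ DCs. The CD4+ value fell under the floor with the arrays scaled to an equal median, after quantile normalization and with the floor at the 95th percentile. The CD8+CX3CR1- and DN values were under the floor, and the largest fold that the floor allows was 1.33. The other 4 probe sets of Ebf1 ranged from 2.4 to 40.0. Pax5, which commits progenitors to the B cell fate, read 47.1, 43.4, 97.1 and 13.0 at 1454401_at in CD8+CX3CR1+, CD8+CX3CR1-, CD4+ and DN DCs. Only the CD4+ value passed the floor, by 1.75-fold, and 4 background probe sets of that array were as bright or brighter. This is the array with the most probe sets above the floor. Whether that bears on the Pax5 value was not tested. The other Pax5 probe set (1421765_at) ranged from 2.2 to 7.8.

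Of the recombination enzymes, Rag2 (1418065_at) had 64.7 in CD8+CX3CR1+ DCs, 76.1 in CD8+CX3CR1- DCs, 35.6 in CD4+ DCs and 76.1 in DN DCs. The 3 values above the floor were within 1.18-fold of each other, exceeded the CD4+ value, raised to the floor, by at least 1.17-fold to 1.37-fold, and were matched or passed by 4, 6 and 6 of 129 background probe sets. Rag1 (1450680_at), without whose product RAG2 does not cut, was under the floor on all arrays at 4.8, 2.6, 20.2 and 43.1 in the same order. The 3 probe sets of Dntt ranged from 2.5 to 24.0, all under the floor. The arrays therefore detected no Rag1 or Dntt signal above background in any subset, which does not show that the transcripts were absent.

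Counted over pairs of arrays, calls at 4-fold concerned Cd79b, Cd22 and Blnk only. The background for each count is the share of all 12653 genes above the floor on at least 1 array that were called in that direction. Between the CD8+CX3CR1+ and CD8+CX3CR1- arrays, 2 of the 9 genes were higher in CD8+CX3CR1+ DCs (Cd79b and Blnk) and 0 lower, against 1.67% and 1.15% of all genes. Against the CD4+ array, the CD8+CX3CR1+ array had 1 higher (Blnk) and 1 lower (Cd22), against 0.395% and 0.379%. Against the DN array it had the same 1 higher and 1 lower, against 0.277% and 0.134%.

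The CD8+CX3CR1- array had 0 higher and 2 lower (Cd79b and Cd22) against CD4+ DCs, where 1.18% and 1.80% of all genes were called. Against the DN array it had 0 higher and 1 lower (Cd22), with 0.743% and 1.28% of all genes. The CD4+ and DN arrays were less than 4-fold apart for all 9 genes, and 0.0711% and 0.182% of all genes were called as higher and lower in CD4+ DCs. Shares of 9 genes are coarse, and pairs that share an array are not independent. Scaling the arrays to an equal median changed how all genes split in pairs with the CD4+ array. The share of calls higher on the first array was then 81.1% (51.0% as deposited) for CD8+CX3CR1+ against CD4+, 59.9% (39.5%) for CD8+CX3CR1- against CD4+ and 12.5% (28.1%) for CD4+ against DN. The median difference of all genes moved to 0.17, 0.15 and -0.12 (log2) in these pairs. Under the equal median the log2 difference of Cd22 from CD4+ DCs was -2.33 for CD8+CX3CR1+ and -2.88 for CD8+CX3CR1- DCs, still past the threshold.

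**Figure D2:**
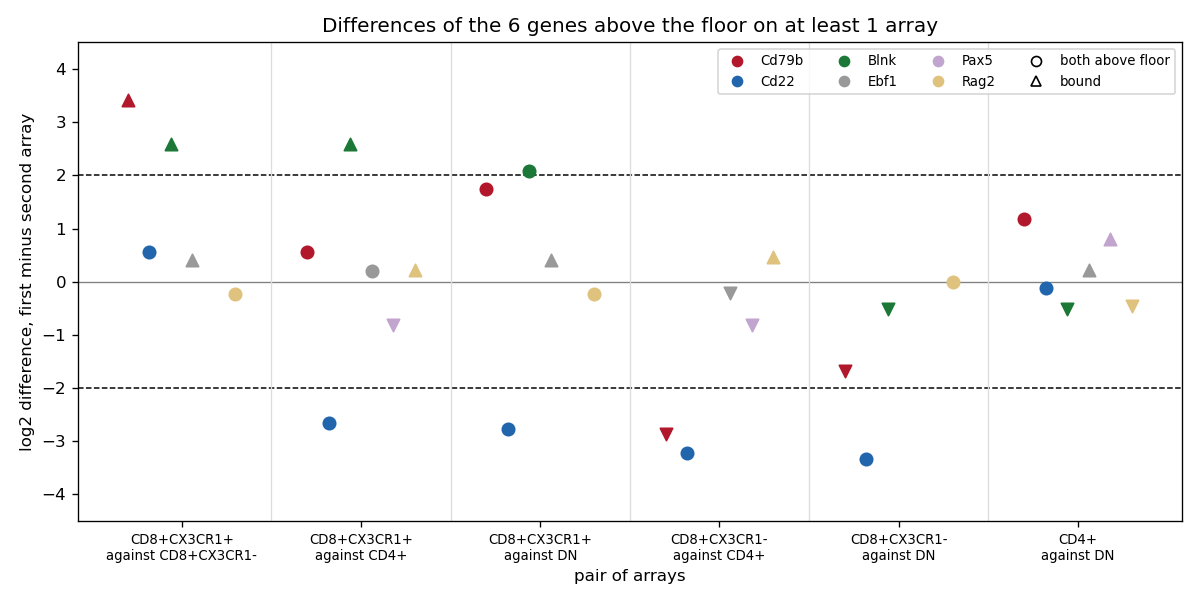
Log2 difference (first minus second array) in the 6 pairs of arrays for the 6 genes above the floor on at least 1 array. Circles are differences between 2 values above the floor, triangles are bounds, pairs with both values under the floor have no point, and dashed lines mark 4-fold. Cd79b, Cd22 and Blnk pass the lines, while Ebf1, Pax5 and Rag2 stay between -0.81 and 0.81.

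The genes whose profiles lay nearest to each of these 3 over the 4 arrays were found by Euclidean distance of log2 signals raised to the floor and centred on each gene's mean. With 4 arrays many genes come close, and the lists are descriptions. Nearest to Cd22 were Ryr3 (distance 0.17), the transporter gene Abcb1a (0.30), the interferon-induced Oas2 (0.52), Gm32633 (0.72) and the decoy receptor gene Il1r2 (0.76). Abcb1a, for example, read 164.3, 100.1, 1146.2 and 940.0 in CD8+CX3CR1+, CD8+CX3CR1-, CD4+ and DN DCs, the same split between CD8+ and other arrays as Cd22. Nearest to Blnk were the receptor phosphatase gene Ptprf (0.23), the chemokine receptor gene Ccr1 (0.43), Septin4 (0.44), Xkrx (0.45) and Pdzd4 (0.45). Ptprf read 378.3 in CD8+CX3CR1+ DCs and 3.0, 27.4 and 71.0 on the others.

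Nearest to Cd79b were Gpm6b (0.51), Fam217b (0.53), Gpr155 (0.62), the collagen receptor gene Ddr1 (0.65) and the kinase gene Mapk11 (0.67). The nearest of these lay farther from Cd79b than Ryr3 from Cd22 or Ptprf from Blnk. None of the 15 genes is on the B-lineage and recombination lists used here.

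**Figure D3:**
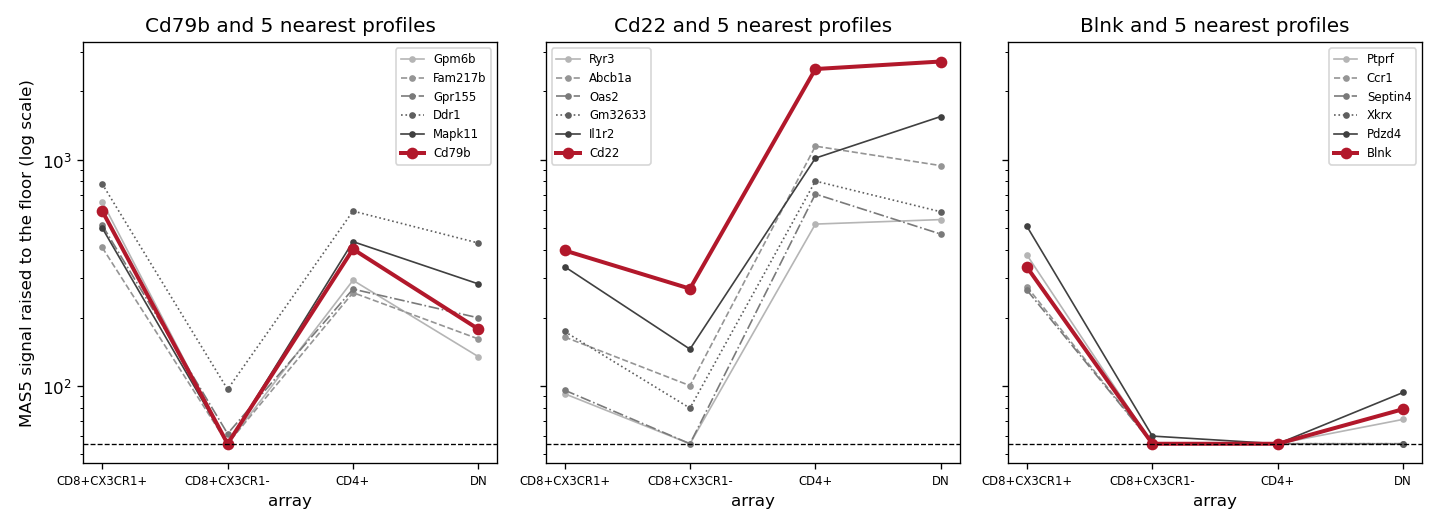
MAS5 signal raised to the floor (log scale) on the 4 arrays for Cd79b, Cd22 and Blnk (thick lines) and, for each, the 5 genes with the nearest profile (thin lines); the dashed line is the floor of 55.4. Cd79b dips to the floor in CD8+CX3CR1- DCs, Cd22 steps up on the CD4+ and DN arrays, and Blnk peaks in CD8+CX3CR1+ DCs.

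The wider programme was followed through 6 lists with 82 genes outside the 9, of which 71 had a probe set with 1 symbol and 65 passed the floor in 1 subset or more. Of these, 7 exceeded 4-fold upwards and 2 downwards in CD8+CX3CR1+ relative to CD8+CX3CR1- DCs, with a median log2 difference of 0.35 against 0 for all genes, of which 1.67% and 1.15% were called. Against the CD4+ array 5 were higher and 0 lower (median 0.02 against 0, with 0.395% and 0.379% of all genes called). Against DN DCs 1 was higher and 0 lower (median 0.11 against 0, with 0.277% and 0.134%). The CD8+CX3CR1- array had 3 higher and 2 lower than CD4+ DCs (median -0.27 against -0.01, with 1.18% and 1.80%) and 1 higher and 3 lower than DN DCs (median -0.22 against 0, with 0.743% and 1.28%). Between the CD4+ and DN arrays 0 were higher and 2 lower in CD4+ DCs (median 0.02 against 0.01, with 0.0711% and 0.182%). The counts by list that follow take a gene as different when it was 4-fold apart in any of the 6 pairs, as 4.66% of all 12653 genes were. The lists were chosen with results of these data known.

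Other B cell surface genes differed for 1 of 12 detected genes. This was Cd72, an inhibitory coreceptor of the B cell receptor, which read 364.3 in CD8+CX3CR1+ DCs, 6.9 in CD8+CX3CR1- DCs, 502.5 in CD4+ DCs and 488.8 in DN DCs. Like Cd79b it lay under the floor in CD8+CX3CR1- DCs, at least 6.58-fold below CD8+CX3CR1+ DCs, at least 9.07-fold below CD4+ DCs and at least 8.82-fold below DN DCs. Its value in DN DCs was close to that in CD4+ DCs, unlike that of Cd79b. Cd72 has 1 probe set (1426112_a_at), so leaving out _x, _s and _a probe sets left no value for it. Ms4a1, which encodes CD20, read 360.8, 445.8, 202.0 and 162.5 in the usual order and was less than 4-fold apart in every pair.

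Of the B cell receptor signalling genes, many of which other leukocytes share, 2 of 16 detected genes differed. The phosphatase gene Ptpn6, whose product SHP-1 is the enzyme that CD22 recruits, was 4.08-fold higher in CD8+CX3CR1+ DCs (3660) than in CD8+CX3CR1- DCs (897.3), with 3550 in CD4+ DCs and 3056 in DN DCs. Cd81, which encodes a tetraspanin of B cells and other leukocytes, ran the other way, at 786.2, 4820, 1713 and 587.5. It was 6.13-fold lower in CD8+CX3CR1+ DCs and 8.20-fold lower in DN DCs than in CD8+CX3CR1- DCs. The kinases Syk (795.3 to 1838) and Btk (314.3 to 662.8), which act beside BLNK, stayed under 4-fold. Of the immunoglobulin and surrogate light chain genes, 3 of 5 with a probe set were detected and none differed by 4-fold. Ighm, the heavy chain of IgM, was bright on all 4 arrays, at 4112, 3226, 4319 and 3045 by its brightest probe set (1427351_s_at). Only 2 of its 11 probe sets were above the floor on all 4 arrays.

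Of the other B-lineage transcription factors, 6 of 17 detected genes differed. Tcf4, which encodes the E protein E2-2 that plasmacytoid DCs depend on, read 3489 in CD8+CX3CR1+ DCs, 269.5 in CD8+CX3CR1- DCs, 470.0 in CD4+ DCs and 1135 in DN DCs. Spib, an Ets factor of B cells and plasmacytoid DCs, read 1557, 60.3, 577.2 and 704.5. Bach2, a repressor active in B cells, read 552.9, 57.8, 94.4 and 197.7. By these probe sets, the brightest of each gene, all 3 were highest in CD8+CX3CR1+ and lowest in CD8+CX3CR1- DCs. Without _x, _s and _a probe sets the Bach2 differences fell under 4-fold, where 1445460_at (110.8, 53.6, 38.8 and 32.7) stood for the gene. The remaining Bach2 probe set (1436515_at) read 455.3, 26.6, 3.3 and 184.0, highest in CD8+CX3CR1+ DCs and under the floor in CD8+CX3CR1- and CD4+ DCs.

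Aff3, a nuclear factor linked to lymphoid cells, read 568.6, 305.7, 17.7 and 232.3 and was lowest in CD4+ DCs, which CD8+CX3CR1+ DCs exceeded by at least 10.3-fold. Its other probe set (1430435_at) read 157.8, 121.3, 5.1 and 8.6, under the floor in both CD4+ and DN DCs. With its probe sets averaged, the log2 differences of CD8+CX3CR1- from CD4+ DCs (1.80) and of CD4+ from DN DCs (-1.03) were under 4-fold. Myb read 861.8, 488.4, 96.0 and 230.3, which is 8.98-fold higher in CD8+CX3CR1+ than in CD4+ DCs. Leaving out _x, _s and _a probe sets left no value for Myb. Id2, an inhibitor of E proteins, was 5.88-fold lower in CD8+CX3CR1+ DCs (236.4) than in CD8+CX3CR1- DCs (1389). Tcf3, which encodes the E2A proteins that act with EBF1, was 208.2, 96.1, 152.9 and 175.7, under 4-fold throughout. Of the end joining genes, which act in any cell type and also close the DNA ends that the RAG enzymes leave, 9 of 10 with a probe set were detected. None of them differed by 4-fold.

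Of the early lymphoid genes, 4 of 8 detected genes differed. Il7r, the interleukin 7 receptor chain that B cell progenitors need, read 559.2, 106.9, 228.7 and 259.2 and was 5.23-fold higher in CD8+CX3CR1+ than in CD8+CX3CR1- DCs. Cd24a was 2280, 3593, 185.0 and 1509, lowest in CD4+ DCs by 8.16-fold or more. Notch1 was 4.39-fold higher in CD8+CX3CR1+ DCs (256.4) than in DN DCs (58.4). Cd93 was at least 4.29-fold higher in CD8+CX3CR1+ DCs (237.9) than in CD8+CX3CR1- DCs (47.1). After averaging the probe sets of each gene, the log2 differences of Il7r (1.34), Notch1 (1.07), Cd93 (0.58) and Ptpn6 (1.23) were under 4-fold in these pairs. So were those of Myb (1.40) and Tcf4 (1.68) between CD8+CX3CR1+ and CD4+ DCs, while Tcf4 remained past 4-fold between the CD8+ subsets.

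**Figure D4:**
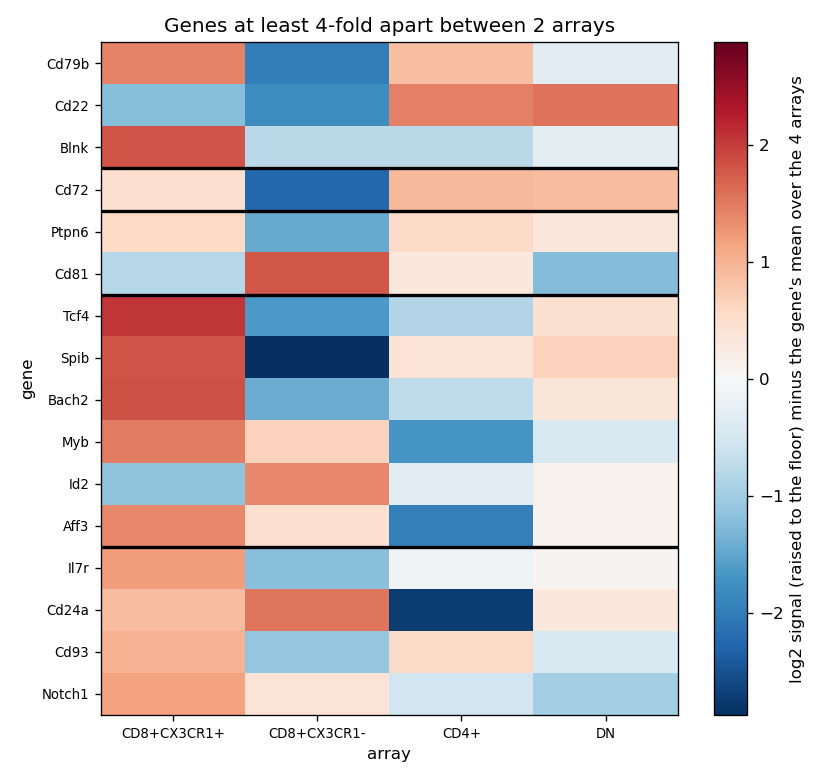
Log2 signal, raised to the floor, minus the gene's mean over the 4 arrays, for the 16 genes of the B-lineage and recombination lists that were at least 4-fold apart in at least 1 pair. Black lines separate, from top to bottom, the genes of the 9, other surface genes, receptor signalling genes, transcription factors and early lymphoid genes. Cd79b and Blnk are, like Tcf4, Spib and Bach2, highest in CD8+CX3CR1+ DCs, and Cd22 in DN DCs.

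Markers of other cells were read on the same arrays. Their summed signals add probe sets that are not on 1 scale, values under the floor included, and describe the lists only. Of 12 B cell markers 9 had a probe set, and 4, 5, 4 and 5 lay above the floor in CD8+CX3CR1+, CD8+CX3CR1-, CD4+ and DN DCs. Their summed signal was 4712, 4004, 4861 and 3579, and its order was that of Ighm, which made up most of it. Of these markers, Cd79a and Vpreb3 were under the floor on all 4 arrays. Blk, a B cell kinase, was 9.0, 2.5, 142.7 and 114.6 and thus above the floor on the arrays where Cd22 was high. Both of its values above the floor lay within the background range of their arrays. Ms4a1 (360.8, 445.8, 202.0 and 162.5 by its brighter probe set) was instead highest in CD8+CX3CR1- DCs. Its dimmer probe set (1450912_at) did not give that order, at 97.9, 88.8, 103.2 and 72.6, highest in CD4+ DCs. Fcrla (86.7, 141.9, 24.8 and 77.6) and Cr2 (7.2, 66.0, 12.3 and 13.8) were also highest in CD8+CX3CR1- DCs. Fcer2a (114.3, 81.1, 49.9 and 83.3) was highest in CD8+CX3CR1+ DCs, and Pou2af1 (9.0, 31.7, 63.4 and 36.1) in CD4+ DCs. Fcrla in CD8+CX3CR1- DCs and Fcer2a in CD8+CX3CR1+ DCs passed the background maximum of their arrays, 139.1 and 91.5. All other values of Fcrla, Cr2, Fcer2a and Pou2af1 lay within the background range. The part of B cells in the Cd22, Cd79b and Blnk values was not tested. The listed Ighd and Igkc were not analysed here.

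The summed signal of the plasmacytoid DC markers (10 of 12 with a probe set) was 8027, 1057, 1669 and 2841, with 8, 6, 7 and 7 above the floor. Most of the sum in CD8+CX3CR1+ DCs came from Tcf4, Spib and Klra17, the last at 1518.6, 52.1, 155.6 and 311.4 in the usual order. Like Blnk, Klra17 was at least 4-fold higher in CD8+CX3CR1+ DCs than in each other subset. Bst2, which encodes the surface protein that antibodies to mouse plasmacytoid DCs bind, read 659.5, 235.5, 89.8 and 231.6 and was 7.34-fold higher in CD8+CX3CR1+ than in CD4+ DCs. Siglech, a surface lectin that defines plasmacytoid DCs, read 205.6 and 63.6 in the CD8+ subsets and was under the floor in the others. Its value of 63.6 in CD8+CX3CR1- DCs was near the floor and within the background range of that array. Ccr9 (327.9, 179.0, 87.8 and 192.4 by its brightest probe set) and Lag3 (104.8, 50.6, 12.7 and 81.1) were highest in CD8+CX3CR1+ DCs, both under 4-fold. Of the other Ccr9 probe sets, 1421920_a_at was highest there too, 1436065_at and 1442758_at were highest in CD4+ DCs, and 1421919_a_at was under the floor everywhere. Cox6a2 (91.3, 69.4, 161.1 and 79.8) and Pacsin1 (18.5, 23.3, 86.0 and 40.2) were instead highest in CD4+ DCs, both under 4-fold. The other Pacsin1 probe set (1449381_a_at) disagreed, at 65.6, 91.8, 6.0 and 4.4, above the floor in the CD8+ subsets only. All these Cox6a2 and Pacsin1 values lay within the background range of their arrays. Ly6d was under the floor on all 4 arrays. The part of plasmacytoid DCs in the Blnk and Cd79b values was not tested, and Tcf4 and Spib stand both in this list and among the B-lineage factors.

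Plasma cell markers, with 4, 3, 5 and 4 of 6 above the floor, summed to 2893, 2827, 1956 and 2574, mostly from Xbp1. Irf4 was the 1 gene of that list at least 4-fold apart, at 880.0, 3.5, 304.9 and 407.1. Like Cd79b it lay under the floor in CD8+CX3CR1- DCs alone, which the other subsets exceeded by at least 15.9-fold, 5.50-fold and 7.35-fold. After averaging its 2 probe sets these differences were under 4-fold. T cell markers, with 4, 1, 2 and 3 of 9 above the floor, summed to 388.8, 224.8, 355.4 and 342.5, and none was 4-fold apart. Of the CD3 chains of the T cell receptor, Cd3e reached 65.8 in CD8+CX3CR1+ and 66.8 in DN DCs and Cd3d 59.1 in CD8+CX3CR1+ DCs, while Cd3g was under the floor on all 4 arrays. These Cd3e and Cd3d values lay within the background range of their arrays. The brightest T cell marker was Cd5, which some B cells also carry, at 117.4, 45.4, 170.7 and 128.1. Natural killer cell markers, with 4, 1, 2 and 3 of 6 above the floor, summed to 504.4, 484.4, 252.6 and 590.1, and Klrk1 alone was 4-fold apart, at 240.1, 340.0, 76.5 and 305.3.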

How the data were processed

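Total RNA of sorted CD11c-high spleen cells was labelled with biotin and hybridised to 4 arrays, 1 per subset. The deposited intensity values are MAS5 signals per probe set on a linear scale, per the submitters' processing notes. The sources used here give no version. Their mean after trimming 2% at each end was 150.0 on all 4 arrays, so a difference in total RNA per cell cannot be seen.

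Groups follow the sample titles. Of 45101 probe sets (64 controls), 34945 have 1 gene symbol, 932 several and 9160 none in the platform annotation, and those with 1 were named. Symbols were checked by Entrez identifier against RefSeq (GRCm38.p6), and 0 changed. For each gene the probe set brightest on average (mean log2 signal) was used. Signals were raised to the floor of 55.4, and a gene was called at 4-fold in any of 6 pairs of arrays. A difference with 1 value under the floor is a bound. No test is possible with 1 array per group. The 9 genes and all lists were chosen with earlier results of these data known. Named besides the 9 were sort markers, up to 4 called genes of each list with the largest differences, and the 5 nearest profiles; other genes were named after their values were seen. Alternatives were other floors, no floor, quantile or equal-median scaling, probe set averages and leaving out _x, _s and _a probe sets. Python 3.11.15, numpy 2.4.6 and pandas 2.3.3 were used. Protein sequences were not used here.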

Additional observations from a re-analysis of the deposited data

How the results depend on the processing

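The 9 called differences of Cd79b, Cd22 and Blnk kept their direction and stayed past 4-fold under all alternatives run. Some alternatives could not change them. These genes have no _x, _s or _a probe sets, averaging leaves Cd79b and Blnk with their 1 probe set, and a lower floor or none can only widen a bound. The Cd79b difference between CD8+CX3CR1- and DN DCs, not called, passed the threshold with the floor at the 75th percentile (-2.35, log2) and without a floor (-5.84). Without a floor, 14 of 54 differences passed that had not, the others being of Cd79a, Rag1, Ebf1, Pax5 and Blnk with values under or near the floor. At the 75th percentile floor, 4 of the 9 genes rather than 2 lay above it on the CD8+CX3CR1- array, and 2 rather than 1 differed between the CD8+CX3CR1- and DN arrays. Without a floor, 3 of the 6 genes above it somewhere differed there and 5 of all 9, and between the CD4+ and DN arrays 3 rather than 0 did by either count. On the CD4+ array 3 rather than 4 genes lay above the floor with an equal median, after quantile normalization and at the 95th percentile floor, and Rag2 fell under that last floor in CD8+CX3CR1+ DCs.

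Other pathway genes at least 4-fold apart numbered 5 between the CD8+CX3CR1+ and CD4+ arrays, and 3 with probe sets averaged or without _x, _s and _a probe sets. Between the CD8+CX3CR1+ and DN arrays there was 1, with 0 at the 95th percentile floor, 3 without those probe sets and 5 without a floor. Between the CD8+CX3CR1- and CD4+ arrays there were 5, with 8 at the 75th percentile floor, 3 with averages or without those probe sets, and 11 without a floor. Between the CD8+CX3CR1- and DN arrays there were 4, with 2 without those probe sets and 7 without a floor. Between the CD4+ and DN arrays there were 2, with 1 at the 95th percentile floor or with averages. Over all genes, the 32 to 377 calls per pair became 14 to 245 with averages, 1110 to 1901 without a floor and 88 to 505 with the 75th percentile floor, and the 32 between the CD4+ and DN arrays became 20 at the 95th. Causes were not tested, beyond that a lower floor lets more low signals in. No paired analysis was possible because each group has 1 array. Low signals, at or under the floor, have no order.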
